A study of Mus musculus with 21 samples.

Results

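The transcripts described here belong to 33 genes of glycolysis, the pentose phosphate pathway and the response to low oxygen in cultured peritoneal macrophages. The members were taken by gene symbol, with no threshold on their values, and a member's level is the sum over its transcripts in TPM (a length-normalised share of the library's transcripts). They are 33 of the 23544 genes summed from the table, and all 33 had a mean of at least 1 TPM over the 21 libraries, the minimum for testing. The cells were CD11b+ cells from the unelicited peritoneal cavity of C57BL/6 mice, held in culture overnight (the protocol gives n = 10 mice). Wild-type cells gave 9 libraries: no protein, recombinant lumican or recombinant biglycan, each with no stimulus, LPS (a ligand of the receptor TLR4) or CpG DNA (a ligand of TLR9). Cells labelled Lum-/- gave 6 libraries, with no protein or lumican under the same stimuli, and cells labelled Bgn-/- (the growth protocol writes Bgn-/0, -/-) gave 6, with no protein or biglycan. LPS was at 100 ng/mL and CpG at 1 µM, each for 6 h in serum-free medium, and a protein was given at 10 µg/mL 1 h before. For the 4 libraries with protein alone the labels state neither a dose nor a time. Both proteins belong to the small proteoglycans of the matrix with leucine-rich repeats, and the design compares their loss and their addition under each stimulus. There is a single library for each combination, and the labels do not say which animals a well held. Genotype and cell preparation therefore cannot be told apart, and p-values measure the spread between these libraries, not between animals.

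Glycolysis turns glucose into pyruvate, and lactate dehydrogenase turns pyruvate into lactate, which leaves the cell through monocarboxylate carriers. The pentose phosphate pathway branches off at glucose 6-phosphate and supplies NADPH and ribose. Many glycolytic genes are textbook targets of HIF-1, whose alpha subunit is marked for decay by oxygen-dependent prolyl hydroxylases, and macrophages activated through TLR4 are known for high glycolytic flux.

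Some libraries stood apart, and some of the results that rest on them are also given without them. Differences of responses were fitted with all libraries only. Differences with added protein are given with all libraries, and ratios between members were recomputed only with 1 matched set left out at a time. The untreated Lum-/- library had an estimated depth of 2.25 M reads and the Bgn-/- library with biglycan alone one of 2.41 M, while the remaining 19 lay between 13.9 and 21.9 M. These 2 libraries, from different genotype labels, differed by less than sampling noise (0.187 times its size over 515 genes, against at least 2.125 times in the other 209 pairs). For 14 of the 33 members they were the 2 highest of the 7 unstimulated libraries, among them Gpi1, Aldoc, Pfkfb3, Pkm and Bnip3, and for 3 (Pfkm, Pgk1 and Egln1) the 2 lowest. The targeted genes went against the labels: Lum stood at 0.823 to 14.1 TPM in the 6 libraries labelled Lum-/- and at 0 to 1.40 TPM in wild type, and Bgn reached 3.49 TPM under the label Bgn-/-. The other gene was low instead. Outside the 2 alike libraries, Bgn was at 0 to 0.263 TPM under the label Lum-/- and at 0.327 to 1.52 TPM in wild type. Lum was at 0 to 0.134 TPM under the label Bgn-/-, again outside the alike libraries. The reason was not tested. Genotypes are therefore named as labelled throughout. Macrophage markers were present (8 of 8 with a mean of at least 1 TPM), and their sum had a median of 39300 TPM without stimulus, 14600 TPM after LPS and 34300 TPM after CpG. Lyz2 made up most of that sum (medians 35300, 12500 and 31100 TPM), while Adgre1 had medians of 669, 578 and 578 TPM, lower after LPS in TPM (-0.26 ± 0.06) and higher on scaled TPM (0.58). The medians of Csf1r, Cd68, Icam2, Gata6, Itgam and Mertk were 1120, 1960, 26.0, 7.99, 489 and 43.3 TPM without stimulus. After LPS they were 192, 828, 7.76, 3.40, 329 and 25.7 TPM. Neutrophil markers summed to medians of 132 TPM without stimulus, 335 TPM after LPS and 177 TPM after CpG, nearly all from S100a8. Ly6g and S100a9 were at or near 0. B cell markers were present too (5 of 6 with a mean of at least 1 TPM), with summed medians of 190 TPM without stimulus, 131 TPM after LPS and 144 TPM after CpG. On both scales described below, Cd79a, Cd79b and Ms4a1 fell after CpG, by 0.59 ± 0.17, 1.24 ± 0.17 and 1.03 ± 0.17 in TPM, and Pax5 rose by 1.1 ± 0.18. No marker of T and NK cells, eosinophils, mesothelium and fibroblasts or erythroid cells reached a mean of 1 TPM. The part of these cell types in the results was not tested, and in such bulk samples fewer cells of a type and less RNA per cell cannot be told apart.

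TPM is a share, and LPS moved the whole table: the median of all 11763 tested genes fell by 0.72 on the log2 scale after LPS and by 0.05 after CpG. Each difference is therefore also given for scaled TPM, divided by a library's median-of-ratios factor (0.619 to 0.749 with LPS, 1.124 to 1.272 otherwise), which brought the median gene to 0.01 after LPS. A member is said to have risen or fallen only where limma's adjusted p was under 0.05 in the same direction on both scales. Differences are in log2(TPM + 1) ± SE over the 7 matched sets of genotype and protein, which understates the change of low genes.

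After LPS, 7 of the 33 members rose and 15 fell, while over all tested genes 14.1% rose and 38.7% fell. The genes that rose were Slc2a1, Hk2, Hk3, Pfkfb3, Pfkp, Pgk1 and P4ha1, and those that fell included Gpi1, Pfkl, Tpi1, Pkm, Ldhb and G6pdx. On deposited TPM alone 7 members were higher and 23 lower (14.1% and 72.3% of all genes), and on scaled TPM 11 were higher and 15 lower (39.3% and 38.7%). The members' median difference was -0.93 in TPM and -0.09 after scaling, beside -0.72 and 0.01 for all genes. Summed over the 33 members, the level in deposited TPM had a median of 9840 TPM without stimulus, 5590 TPM after LPS and 10100 TPM after CpG. This sum was not scaled, so it holds the shift of the whole table after LPS. The median scaling factor was 1.224 without stimulus, 0.673 after LPS and 1.208 after CpG.

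Of the 4 genes of glucose uptake and trapping, 3 rose. Slc2a1 (chromosome 4, 119108711 to 119137983, GRCm38), the glucose transporter GLUT1, ranged from 58.0 to 70.6 TPM without stimulus (median 60.6) and from 99.4 to 130 TPM after LPS (median 118). No LPS library overlapped an unstimulated one, and the difference was 0.89 ± 0.05 (limma adjusted p = 9.22e-11), or 1.72 ± 0.06 on scaled TPM. Hk2 (chromosome 6, 82725025 to 82774454), an inducible hexokinase, went from 11.4 to 16.4 TPM (median 13.2) to 21.1 to 30.8 TPM (median 26.4), again without overlap, a difference of 0.86 ± 0.07 and 1.66 scaled. Hk3, the hexokinase of myeloid cells, rose by 0.38 ± 0.10 from a median of 147 TPM to 190 TPM, with 1 of the 7 sets moving the other way in TPM and none after scaling. Hk1, the housekeeping hexokinase, had medians of 43.4 and 41.1 TPM and a difference of 0.00 ± 0.06, so its call depended on the scale (0.82 ± 0.07 scaled).

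**Figure D1:**
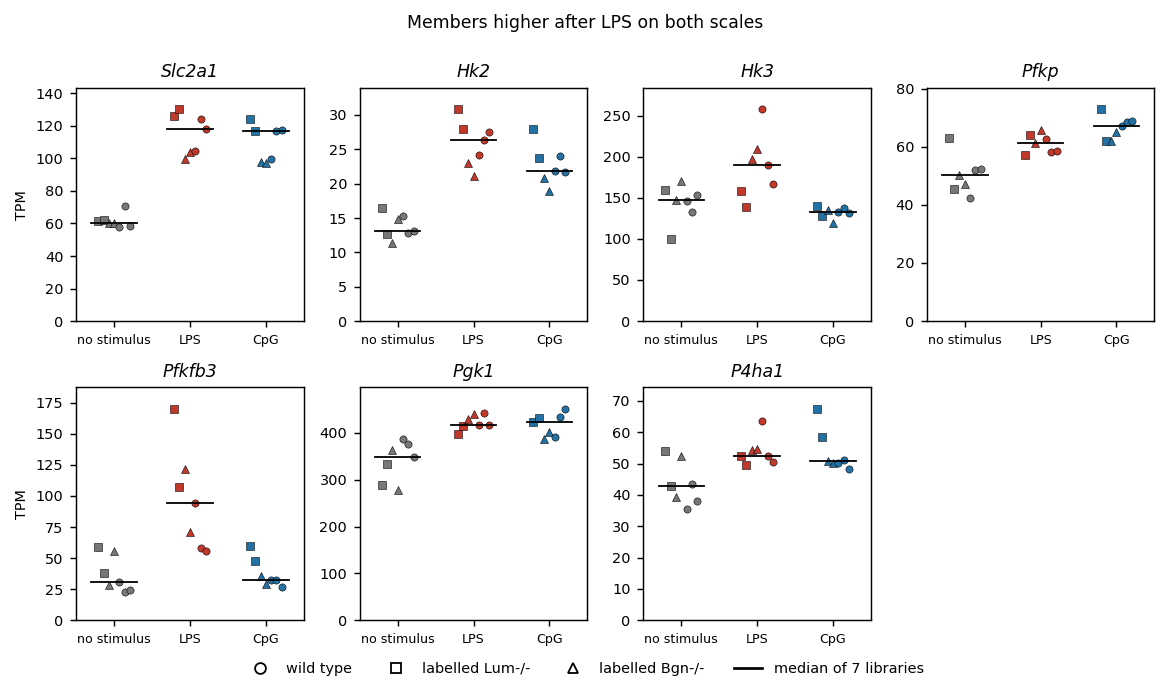
Deposited TPM of the 7 members that rose after LPS on both scales, by stimulus, 1 point per library (7 per stimulus) with the median as a line and the genotype label as the shape. Slc2a1 and Hk2 LPS libraries all lie above the unstimulated ones, from 99.4 and 21.1 TPM upward, while Pfkfb3 spreads from 55.7 to 170.3 TPM after LPS.

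The 2 bifunctional PFKFB enzymes, which set the level of fructose 2,6-bisphosphate and through it the activity of phosphofructokinase, moved in opposite directions. Pfkfb3 (chromosome 2, 11471433 to 11554077) ranged from 23.1 to 59.1 TPM without stimulus (median 30.4) and from 55.7 to 170.3 TPM after LPS (median 94.1). The ranges overlapped at 1 unstimulated library, the untreated one labelled Lum-/- (59.1 TPM, with its alike library at 55.5 TPM). Pfkfb3 was higher in 7 of 7 sets, by 1.35 ± 0.15 (limma adjusted p = 3.84e-07) and by 2.18 ± 0.17 on scaled TPM, 4.54-fold. Pfkfb4 (chromosome 9, 108991778 to 109032228) went from 21.8 to 29.8 TPM (median 23.0) to 5.71 to 8.64 TPM (median 6.78), a difference of -1.70 ± 0.07. A transcript that GENCODE annotates as processed, not coding, made up a median of 40% of the gene without stimulus, 4.87% after LPS and 37.0% after CpG. Over coding transcripts only, a choice made after the data were seen, Pfkfb4 differed by -0.51 ± 0.29 and was not called (limma adjusted p = 0.115).

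Upper glycolysis split by isozyme. Pfkp, the platelet-type phosphofructokinase, rose by 0.28 ± 0.07, from a median of 50.2 TPM to 61.2 TPM, although with only the 9 libraries without protein it differed by 0.23 ± 0.13 (limma adjusted p = 0.151). Pfkl, the liver-type subunit, ranged from 88.2 to 143 TPM without stimulus (median 96.9) and from 19.0 to 36.2 TPM after LPS (median 30.3), a difference of -1.82 ± 0.13. Tpi1 (chromosome 6, 124810586 to 124814296), triosephosphate isomerase, fell from 179 to 223 TPM (median 187) to 32.0 to 49.7 TPM (median 46.0), by 2.18 ± 0.10 and by 1.35 ± 0.09 scaled. Neither of these falls left any overlap between the LPS and unstimulated libraries.

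Aldoc (chromosome 11, 78322968 to 78327781), the minor aldolase here, ranged from 7.90 to 32.8 TPM without stimulus (median 12.6) and from 0.924 to 3.60 TPM after LPS (median 1.83), a difference of -2.43 ± 0.19. Aldoa, the major aldolase, had medians of 1590 and 941 TPM, and its difference of -0.77 ± 0.05 was close to the shift of the median gene (0.08 ± 0.04 scaled, not called). Gpi1, glucose 6-phosphate isomerase, went from a range of 325 to 508 TPM (median 365) to 89.4 to 147 TPM (median 104), and fell by 1.8 ± 0.11. Pfkm, the muscle-type subunit, was at a median of 5.81 TPM without stimulus and 2.89 TPM after LPS and was lower in TPM only (-0.69 ± 0.15, -0.01 scaled).

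In lower glycolysis, the enzymes did not move together. Pgk1, phosphoglycerate kinase, rose by 0.33 ± 0.06, from 277 to 387 TPM (median 348) to 399 to 442 TPM (median 418), with no overlap and all 7 sets higher, though without the protein libraries the limma adjusted p was 0.0589. Pkm, pyruvate kinase, fell from 1120 to 1610 TPM (median 1210) to 399 to 572 TPM (median 481), or by 1.42 ± 0.08. Eno1, enolase, and Pgam1, phosphoglycerate mutase, fell by 1.14 ± 0.07 and 1.18 ± 0.07, from medians of 600 and 376 TPM to 304 and 165 TPM. Their scaled medians were closer, 490 and 299 without stimulus and 424 and 247 after LPS, with overlapping ranges. Gapdh went against itself on the scales, lower in TPM (-0.70 ± 0.05, medians 1330 and 830 TPM) and higher after scaling (0.15 ± 0.05, limma adjusted p = 0.0226), so no direction is given for it. Near-identical copies can share reads with these genes: Pgam1-ps2 was listed at up to 39.7 TPM, Pgk1-rs7 at up to 8.98 TPM and Eno1b at up to 4.62 TPM.

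**Figure D2:**
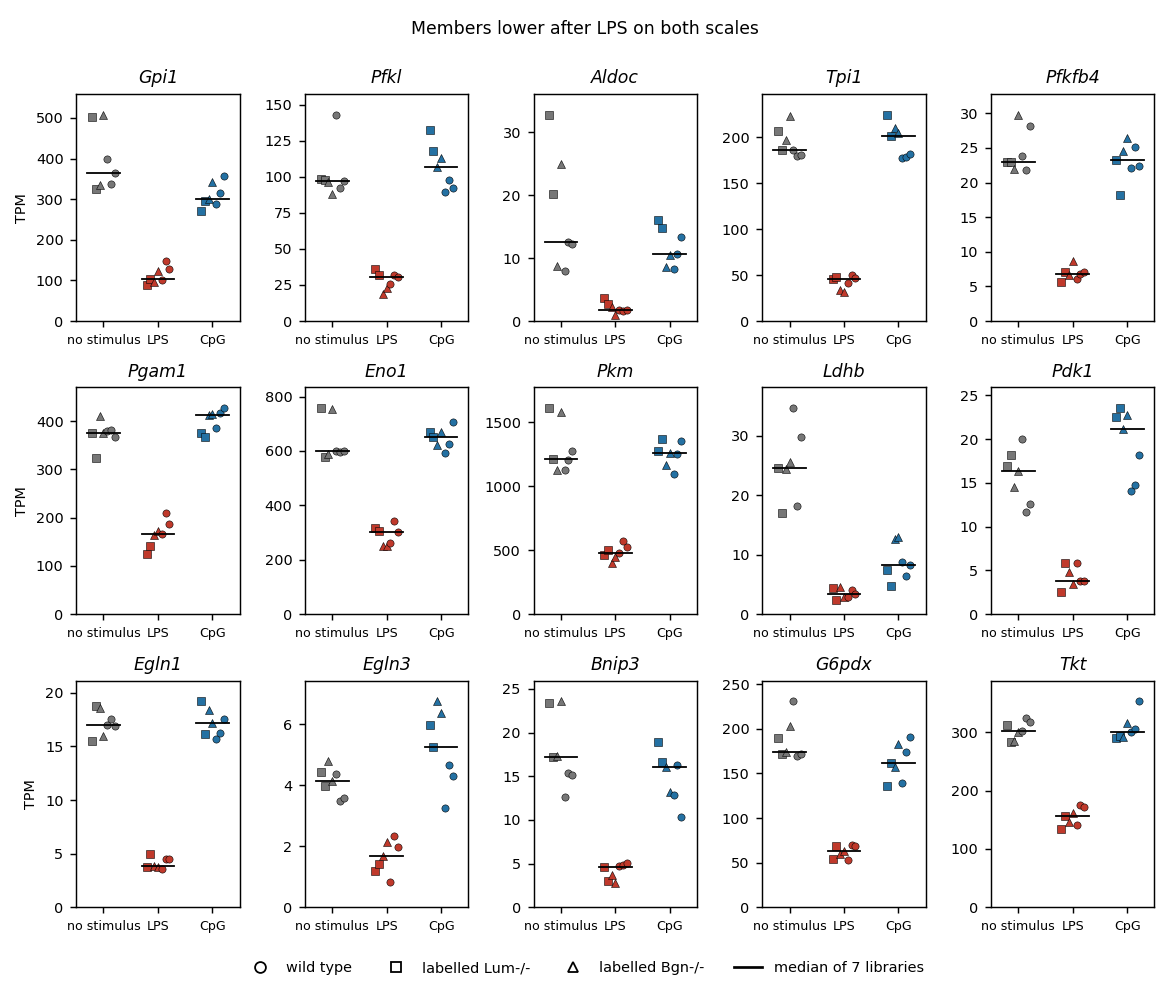
Deposited TPM of the 15 members that fell after LPS on both scales, by stimulus, 1 point per library (7 per stimulus) with the median as a line and the genotype label as the shape. In every panel the LPS libraries lie below all unstimulated ones, for Tpi1 at 32.0 to 49.7 TPM against 179 to 223 TPM, and Ldhb is also low after CpG. On scaled TPM these ranges overlap for Pgam1, Eno1, Egln3 and Tkt. In deposited TPM 72.3% of all tested genes were lower after LPS, and the share of them without overlap was not counted.

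Lactate and pyruvate genes were led by the fall of Ldhb (chromosome 6, 142490249 to 142507957), the heart-type lactate dehydrogenase subunit. It ranged from 17.0 to 34.6 TPM without stimulus (median 24.6) and from 2.31 to 4.62 TPM after LPS (median 3.36), and its difference of -2.51 ± 0.15 (limma adjusted p = 1.27e-10) was the largest of the 33 in deposited TPM. On scaled TPM it was -1.79, less in size than that of Pfkfb3. Pdk1, a kinase that switches off pyruvate dehydrogenase, fell by 1.67 ± 0.14, from 11.7 to 20 TPM (median 16.3) to 2.57 to 5.89 TPM (median 3.80). Ldha, the muscle-type subunit, and Slc16a3, the lactate exporter MCT4, were lower in TPM only (-0.90 ± 0.10 and -0.84 ± 0.15), with scaled differences of -0.06 and -0.03. Slc16a1, the carrier MCT1, had medians of 5.32 and 6.10 TPM and was higher on scaled TPM only (0.88 ± 0.14).

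Among the genes of oxygen sensing and the hypoxia targets, 1 rose and 3 fell. P4ha1, a collagen prolyl hydroxylase subunit, rose by 0.31 ± 0.09, from a median of 42.8 TPM to 52.4 TPM. Hif1a, the HIF-1 alpha subunit, had medians of 109 and 119 TPM and differed by 0.16 ± 0.08 in TPM, not called, and by 1.00 ± 0.08 on scaled TPM. Egln1 (chromosome 8, 124908587 to 124949324), the main HIF prolyl hydroxylase, ranged from 15.6 to 18.8 TPM without stimulus (median 17.0) and from 3.58 to 4.95 TPM after LPS (median 3.86), a difference of -1.83 ± 0.07 and -1.09 scaled. Egln3, a paralog of it, fell by 0.97 ± 0.13 from a median of 4.13 TPM to 1.69 TPM (scaled medians 3.28 and 2.54). Under quantile normalization that difference was -0.09 and not called (limma adjusted p = 0.538). Bnip3, a mitophagy receptor and hypoxia target, fell by 1.87 ± 0.15 from a median of 17.2 TPM to 4.64 TPM. Vegfa, the vascular growth factor, was lower in TPM only (-1.03 ± 0.13, -0.21 scaled).

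The pentose phosphate enzymes had 2 members that fell and none that rose. G6pdx, the glucose 6-phosphate dehydrogenase that opens the pathway, went from 170 to 231 TPM (median 174) to 53.1 to 70.0 TPM (median 63.3), a difference of -1.57 ± 0.09 and -0.73 scaled. Tkt, transketolase, fell by 0.97 ± 0.05 (medians 302 and 156 TPM), but by only 0.13 ± 0.04 on scaled TPM, and its coding transcripts held a median of 22.6% of its TPM without stimulus. Pgd and Taldo1 were lower in TPM only, at -0.78 ± 0.08 and -0.93 ± 0.07, with scaled differences of 0.06 and -0.09. Without the 2 alike libraries, 8 members rose and 15 fell after LPS, and the 22 called with all libraries kept their calls on deposited TPM.

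Promoter sequences are shown for Pfkfb3 and Slc2a1, which rose the most after LPS in deposited TPM, and for Ldhb and Aldoc, which fell the most, since the hypoxia response element to which HIF-1 binds has a short core that can be searched for. All 33 members matched RefSeq (GRCm38.p6), with 48 windows from 250 bases before to 50 after a gene's start. The core was searched as ACGTG or GCGTG on both strands, and matches can share bases with each other or across strands. It is in capitals below, and a match on the other strand reads CACGT or CACGC. A second Aldoc window (chr11:78323948-78324247, 1 match) is not shown.
Slc2a1, chr4:119108495-119108794, plus strand: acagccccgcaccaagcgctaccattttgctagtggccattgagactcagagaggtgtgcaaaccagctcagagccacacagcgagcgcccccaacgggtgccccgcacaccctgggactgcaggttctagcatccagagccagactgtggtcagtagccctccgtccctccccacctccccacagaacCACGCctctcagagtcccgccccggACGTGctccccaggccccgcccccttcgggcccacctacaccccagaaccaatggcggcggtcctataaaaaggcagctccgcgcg
Pfkfb3, chr2:11553880-11554179, minus strand: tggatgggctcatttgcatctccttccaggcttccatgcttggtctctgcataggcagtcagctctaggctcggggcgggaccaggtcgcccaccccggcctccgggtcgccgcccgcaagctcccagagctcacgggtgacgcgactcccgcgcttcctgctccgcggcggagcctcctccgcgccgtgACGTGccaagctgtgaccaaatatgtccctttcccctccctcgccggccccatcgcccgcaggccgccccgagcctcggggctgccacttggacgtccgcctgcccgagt
Pfkfb3, second start, chr2:11502041-11502340, minus strand: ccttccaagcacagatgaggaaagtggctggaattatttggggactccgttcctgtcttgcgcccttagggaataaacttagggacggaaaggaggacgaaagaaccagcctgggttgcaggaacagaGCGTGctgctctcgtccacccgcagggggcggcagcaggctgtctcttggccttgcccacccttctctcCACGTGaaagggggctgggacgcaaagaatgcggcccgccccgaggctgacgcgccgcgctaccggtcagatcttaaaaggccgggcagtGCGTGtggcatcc
Aldoc, chr11:78322823-78323122, plus strand: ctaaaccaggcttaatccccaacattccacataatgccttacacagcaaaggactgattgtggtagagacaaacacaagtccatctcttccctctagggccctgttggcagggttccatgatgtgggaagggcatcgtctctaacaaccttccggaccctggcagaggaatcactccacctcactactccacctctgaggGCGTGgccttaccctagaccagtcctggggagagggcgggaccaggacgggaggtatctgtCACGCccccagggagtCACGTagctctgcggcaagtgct
Ldhb, chr6:142507908-142508207, minus strand: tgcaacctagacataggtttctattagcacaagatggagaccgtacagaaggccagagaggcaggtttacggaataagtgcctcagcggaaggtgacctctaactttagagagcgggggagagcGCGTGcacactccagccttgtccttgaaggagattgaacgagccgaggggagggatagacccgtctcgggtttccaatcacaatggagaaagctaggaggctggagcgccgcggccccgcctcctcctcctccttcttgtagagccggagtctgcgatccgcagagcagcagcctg
The core occurred in the windows of genes that rose and of genes that fell. It was in 39 of the members' 48 windows (81.2%), in 8 of the 8 windows of the 7 genes that rose after LPS and in 16 of the 20 windows of the 15 that fell (80.0%), against 43.8% of all 32851 windows of this length. A match describes letters in a window and says nothing of binding.

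CpG moved fewer of these genes: 9 rose and 3 fell, beside 15.0% and 18.6% of all tested genes. On deposited TPM alone the members' counts were the same (15.0% and 22.6% of all genes), and on scaled TPM 10 were higher and 3 lower (18.7% and 18.6%). The members' median difference was 0.02 in TPM and 0.07 scaled. The comparisons of LPS and of CpG with no stimulus share the same unstimulated libraries, so their values are set side by side without a test of overlap. Slc2a1 rose to 97.3 to 124 TPM (median 117), with no overlap with the unstimulated libraries, by 0.82 ± 0.05 (limma adjusted p = 3.19e-08), and Hk2 to 18.9 to 28.0 TPM (median 21.9), by 0.68 ± 0.07. Ldhb fell to 4.81 to 12.9 TPM (median 8.27), by 1.43 ± 0.15, also without overlap. Slc16a1 rose by 0.54 ± 0.13 to 7.70 to 9.77 TPM (median 8.70), all above the 4.54 to 7.64 TPM of the unstimulated libraries. On deposited TPM these 4 kept their call under every alternative tried, and the other 8 lost it in at least 1.

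Ldha and the MCT4 gene Slc16a3 rose after CpG, by 0.36 ± 0.10 (medians 415 and 571 TPM) and by 0.52 ± 0.15 (medians 29.3 and 41.3 TPM). Pfkp rose by 0.40 ± 0.07 to a median of 67.0 TPM, Hif1a by 0.38 ± 0.08 to 142 TPM, Pgk1 by 0.31 ± 0.06 to 423 TPM and P4ha1 by 0.30 ± 0.09 to 50.8 TPM. Besides Ldhb, Pfkm fell by 0.51 ± 0.15 to a median of 3.78 TPM and Gpi1 by 0.34 ± 0.11 to 301 TPM. The call for Gpi1 was lost without the 2 alike libraries (-0.17 ± 0.08, limma adjusted p = 0.14), and over coding transcripts only it differed by 0.01 ± 0.12. Pfkfb3 and Pfkfb4 stayed near their unstimulated medians, at 32.4 and 23.3 TPM, with differences of 0.06 ± 0.15 and -0.08 ± 0.07 that were not called. None of the 4 pentose phosphate members was called after CpG. With only the 9 libraries without added protein, 4 members rose and 1 fell.

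**Figure D3:**
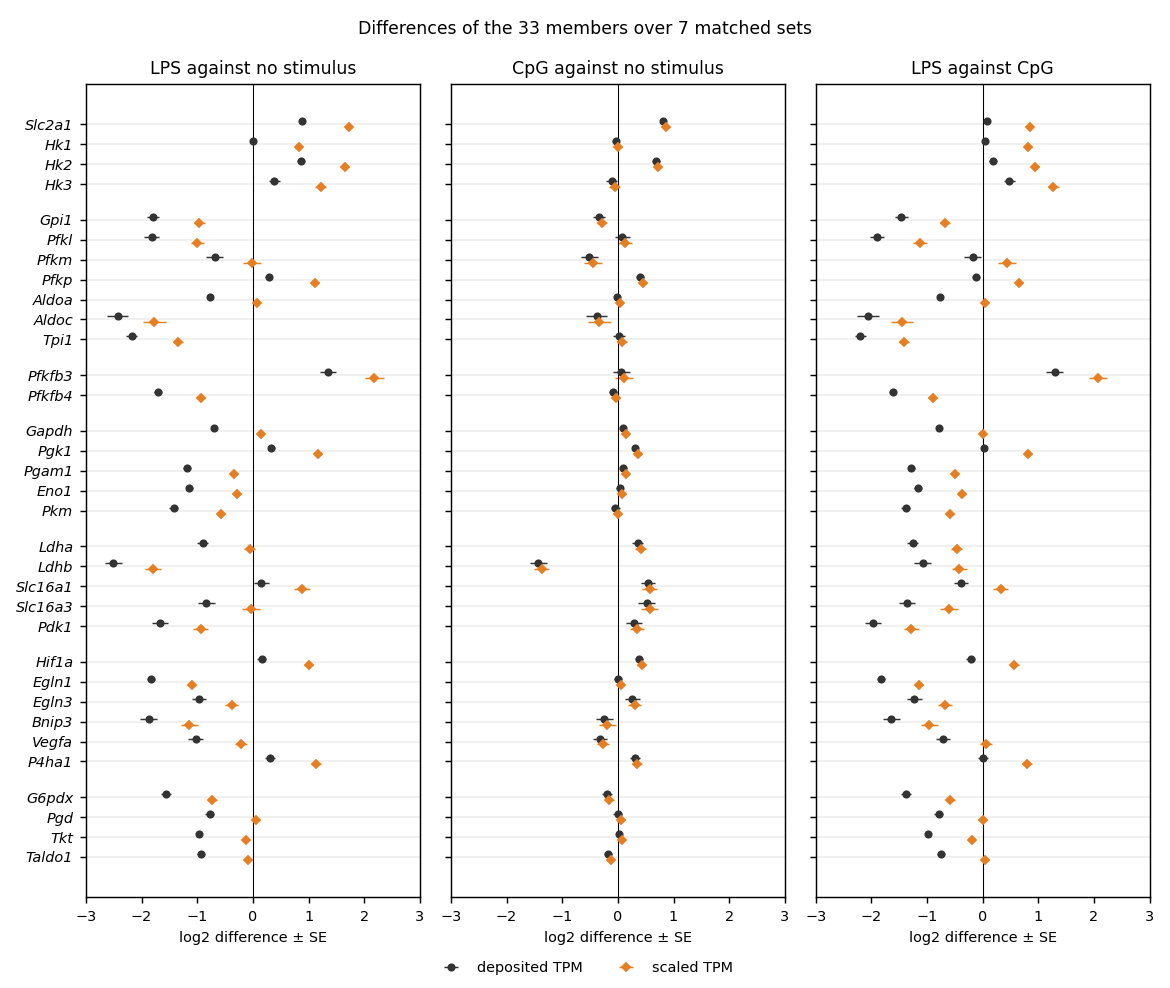
Log2 difference ± SE of each of the 33 members over 7 matched sets, in deposited TPM (black circles) and scaled TPM (orange diamonds), for LPS against no stimulus, CpG against no stimulus and LPS against CpG. In the LPS panels the scaled values lie to the right of the deposited ones, and in the CpG panel the 2 scales nearly coincide.

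Compared directly, 3 members were higher after LPS than after CpG and 17 were lower, beside 11.6% and 37.8% of all tested genes. In deposited TPM alone these were 3 and 24 members (11.6% and 74.1% of all genes), and in scaled TPM 10 and 17 (36.8% and 37.8%). Pfkfb3 was higher by 1.29 ± 0.15 (2.07 scaled), Hk3 by 0.48 ± 0.10 and Hk2 by 0.18 ± 0.07. The last of these lost its call under 10 alternatives, among them the fit without the protein libraries (0.14 ± 0.10, limma adjusted p = 0.248). The lowest were Tpi1 (-2.20 ± 0.10), Aldoc (-2.06 ± 0.19), Pdk1 (-1.97 ± 0.14), Pfkl (-1.90 ± 0.13) and Egln1 (-1.83 ± 0.07), and for each of these the LPS libraries lay below every CpG library. Ldha, which rose after CpG, was lower after LPS than after CpG on both scales, by 1.26 ± 0.10 and by 0.47 ± 0.10 scaled. Slc16a3 was lower by 1.36 ± 0.15 and by 0.60 ± 0.16 scaled. Hif1a turned its direction with the scale (-0.22 ± 0.08 in TPM, 0.57 ± 0.08 scaled).

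Ratios between paralogous members within a library depend on the library's scaling through the pseudocount of 1 only. The pseudocount weighs more where a gene is low, as Ldhb and Aldoc were after LPS. Ratios were compared over the 7 sets with exact two-sided sign-flip permutation tests (18 tests, smallest p possible 0.0156, adjusted 0.0234). Ldha exceeded Ldhb by a median log2 ratio of 4.40 without stimulus, 5.86 after LPS and 5.92 after CpG. The ratio was higher by 1.61 ± 0.55 (SD, n = 7 sets) after LPS and by 1.8 ± 0.51 after CpG, each in 7 of 7 sets (exact adjusted p = 0.0234 for each). The direct difference between the stimuli was -0.19 ± 0.35 and did not pass (exact adjusted p = 0.229), but with a pseudocount of 5 it was -0.58 ± 0.22 and passed (exact adjusted p = 0.0216). Hk2 relative to Hk1 was also higher after each stimulus, by 0.86 ± 0.24 and 0.72 ± 0.15 (exact adjusted p = 0.0234 for each, n = 7).

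A further 4 ratios shifted after LPS, each in the same direction in 7 of 7 sets with an exact adjusted p of 0.0234, and none of the 4 passed after CpG with all sets. Pfkfb3 over Pfkfb4 went from a median log2 ratio of 0.34 to 3.75, a mean difference of 3.05 ± 0.53, against 0.14 ± 0.45 after CpG (exact adjusted p = 0.463). Pfkp over Pfkl went from -0.89 to 0.97 (2.11 ± 0.58), so the platelet-type transcript passed from the lesser to the greater, and the difference after CpG was 0.33 ± 0.49 (exact adjusted p = 0.108). Without the Lum-/- set that had no protein, that CpG difference was 0.42 ± 0.46 and passed (exact adjusted p = 0.0433). Slc16a3 over Slc16a1 was lower by 0.99 ± 0.48 and Aldoc over Aldoa by 1.67 ± 0.78. The 2 alike libraries had the highest unstimulated ratios of Aldoc over Aldoa (-5.6 and -5.93). With 1 set left out in turn, that difference after LPS ran from -1.82 to -1.44. The difference between LPS and CpG itself passed for these 4 ratios (exact adjusted p = 0.0234).

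**Figure D4:**
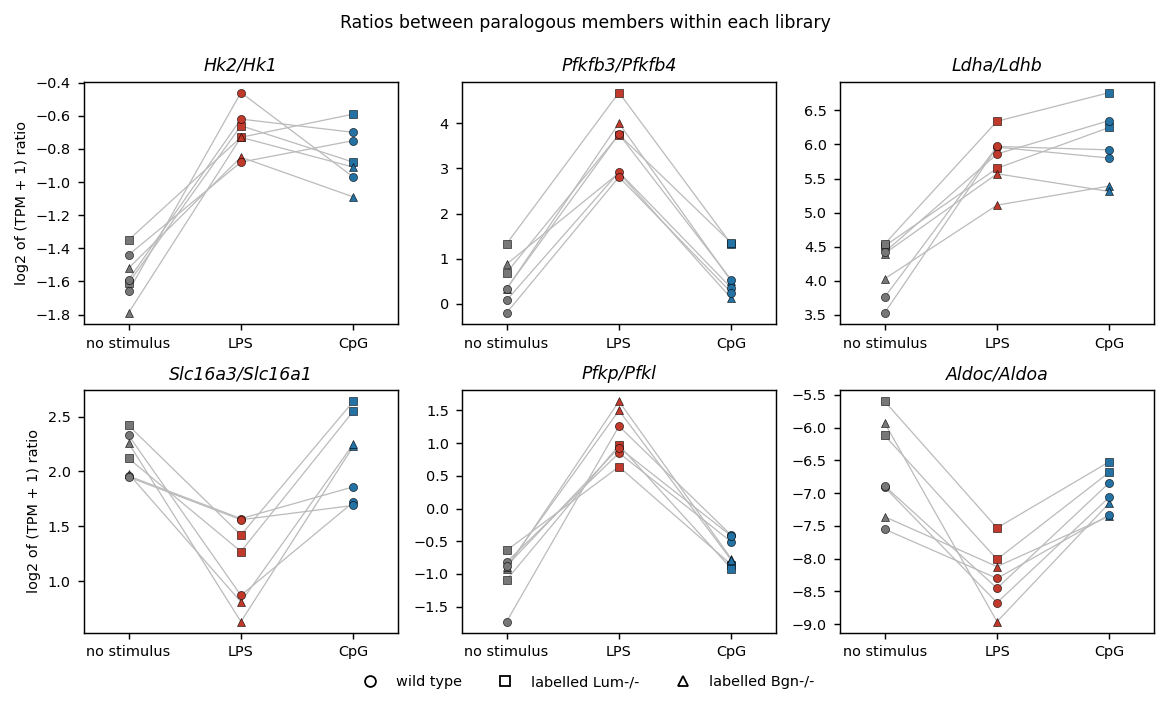
Log2 ratio of (TPM + 1) between 6 pairs of paralogous members within each library, by stimulus, with grey lines joining the libraries of a matched set (7 sets). Ldha/Ldhb is higher after each stimulus, while Pfkfb3/Pfkfb4 and Pfkp/Pfkl are higher with LPS and near the unstimulated level with CpG. Ratios use all transcripts of a gene, coding or not.

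Between genotype labels, 4 members were higher and 3 lower in the 6 libraries labelled Lum-/- than in wild type under the same 6 treatments, beside 1.61% and 2.34% of all tested genes (1.64% and 3.70% in deposited TPM alone, 2.15% and 2.35% in scaled TPM). Pfkfb3 stood at 59.1, 37.8, 170.3, 107.5, 59.4 and 47.7 TPM under the Lum-/- label (untreated, lumican, LPS, lumican with LPS, CpG, lumican with CpG). The matched wild-type libraries were at 30.4, 23.1, 94.1, 58.0, 32.4 and 32.4 TPM. Each treatment thus gave the higher value under the label, by 0.85 ± 0.13 (limma adjusted p = 0.00254). Slc16a3 was higher in 6 of 6 by 0.61 ± 0.16, for example at 25.75 against 11.95 TPM after LPS and at 62.2 against 31.0 TPM after CpG. Hif1a was higher in 6 of 6 by 0.43 ± 0.09, for example at 166.7 against 123.5 TPM after LPS.

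Aldoc was higher in 6 of 6 by 0.86 ± 0.20, with its widest gap in the untreated libraries (32.8 against 7.90 TPM). That gap rests on 1 of the 2 alike libraries, whose twin under the other label was at 25.0 TPM, and over coding transcripts only the difference was 0.19 and not called (limma adjusted p = 0.659). Taldo1, transaldolase, was lower in 6 of 6 by 0.29 ± 0.05 (limma adjusted p = 0.00928), for example at 1066 against 1225 TPM untreated and at 415.9 against 583.1 TPM after LPS. Pgd and Pgam1 were lower in 6 of 6 by 0.30 ± 0.07 and 0.25 ± 0.06. Without the 2 alike libraries the same 7 members were called.

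On deposited TPM only the calls for Pfkfb3 and Taldo1 held under every alternative tried. On both scales, without the LPS library labelled Lum-/- (no protein), 1 member was higher and none lower, so Taldo1 lost its call there. Mast cell markers differed between these groups: their sum was 3.54 to 116 TPM in wild type and 7.72 to 10.6 TPM under the label Lum-/-, with Cma1 at 1.03 TPM in the untreated wild-type library and at least 20.5 TPM in the other 8. Their part in the result was not tested. Between the label Bgn-/- and wild type no member was called, beside 0.0850% higher and 0.119% lower of all tested genes (0.0850% and 0.128% in deposited TPM alone, 0.0935% and 0.179% in scaled TPM), and the members' differences ran from -0.19 for Hk2 to 0.33 ± 0.12 for Egln3, with 3 members at an unadjusted p under 0.05.

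**Figure D5:**
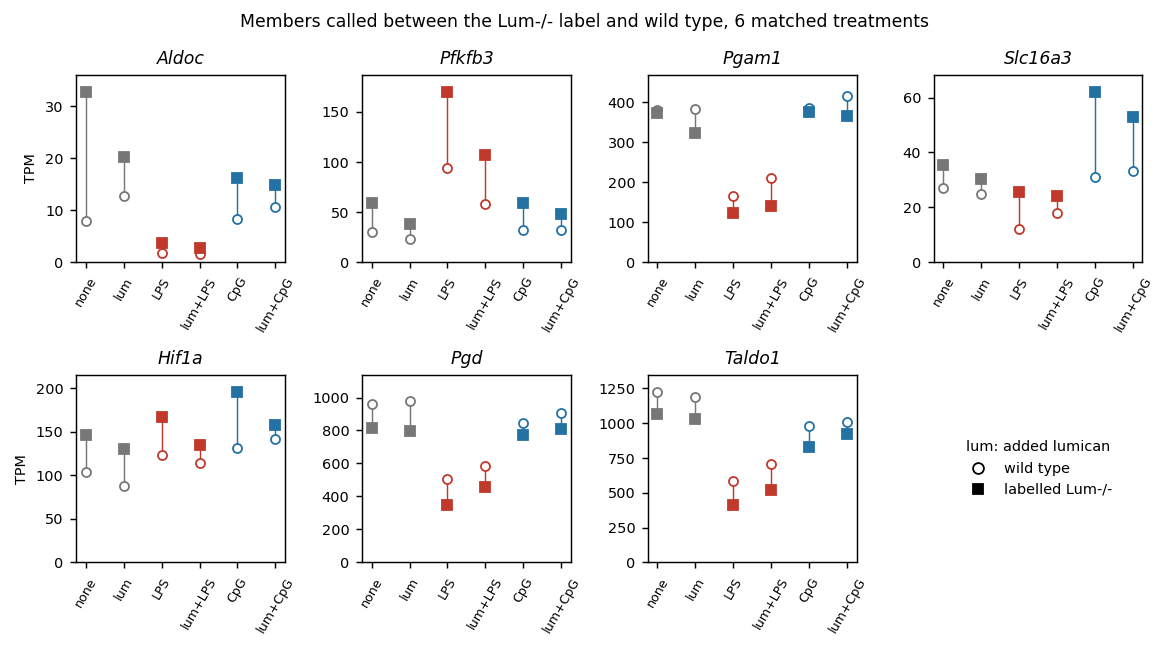
Deposited TPM of the 7 members called between the label Lum-/- (filled squares) and wild type (open circles) in 6 matched treatments, joined by lines and coloured by stimulus (lum, added lumican). Pfkfb3, Aldoc, Slc16a3 and Hif1a are higher under the label in every treatment, and Pgd, Taldo1 and Pgam1 lower, with Pfkfb3 after LPS at 170.3 against 94.1 TPM.

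Added protein changed no member past the threshold, and 0% of all tested genes were called with limma for lumican or for biglycan. At an unadjusted p under 0.05 there were 1130 genes for lumican, 4 of them members, and 1037 for biglycan, 3 of them members. With lumican, Ldhb differed by -0.45 ± 0.13, lower in 5 of 6 pairs (limma adjusted p = 0.381), and Pfkfb3 by -0.39 ± 0.17, lower in 6 of 6 (limma adjusted p = 0.502). With biglycan, Pfkfb4 and Pkm each differed by 0.20 ± 0.08, higher in 6 of 6 pairs (limma adjusted p = 0.543 and 0.535). For each protein, 1 pair holds 1 of the 2 alike libraries, and differences without it are not reported here. In that pair Ldhb and Pfkfb3 were at 24.6 and 59.1 TPM without lumican and 17.0 and 37.8 TPM with it. Pfkfb4 and Pkm were at 22.0 and 1125 TPM without biglycan and 29.8 and 1583 TPM with it. The differences do not show that the proteins had no effect, only that none passed with 6 pairs.

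No member's response to a stimulus differed by genotype label or protein past the threshold, and 0% of all tested genes did in any of the 8 comparisons of responses with limma. The smallest unadjusted p among members, 0.000221, was for Tpi1 (limma adjusted p = 0.564). After LPS Tpi1 differed by -2.51 in the set labelled Bgn-/- without protein and by -2.76 in the one with biglycan. The 3 wild-type sets were at -1.83 to -2.13, so these sets did not overlap. For Ldha and Slc16a3 the same comparison of labels gave -0.73 ± 0.18 and -0.83 ± 0.20 (limma adjusted p = 0.73 for each). The biglycan set rests on 1 of the 2 alike libraries, which were the 2 highest unstimulated ones for Tpi1, Ldha and Slc16a3. Differences of responses were not fitted without them. The response of Pfkfb3 to LPS was 0.35 in the biglycan set labelled Bgn-/-, whose unstimulated library is 1 of the 2 alike ones, and 1.16 to 2.08 in the other 6 sets.

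Other genes of these pathways, from lists of names, were counted by the same rule. Of 23 tested genes of oxygen sensing and hypoxia beyond the members, 8 rose and 6 fell after LPS, where 14.1% of all tested genes rose and 38.7% fell. Adm, the peptide adrenomedullin, went from 1.45 to 4.92 TPM (median 2.34) to 73.9 to 245 TPM (median 158), by 5.39 ± 0.21, and by 0.58 ± 0.21 after CpG. In the other direction, Bnip3l, the paralog of Bnip3, fell by 2.37 ± 0.10 after LPS (medians 211 and 39.4 TPM) and Epas1, the HIF-2 alpha subunit, by 2.18 ± 0.14. After CpG, 8 of the 23 rose and 7 fell, beside 15.0% and 18.6% of all tested genes.

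Among 20 other tested genes of glycolysis and its branches, 1 rose and 12 fell after LPS (14.1% and 38.7% of all tested genes), and 4 rose and 5 fell after CpG (15.0% and 18.6%). The largest falls after LPS were those of Slc16a7 (the carrier MCT2, -2.90 ± 0.18), Khk (ketohexokinase, -2.68 ± 0.10), Slc2a8 (the transporter GLUT8, -2.38 ± 0.12) and Galk1 (galactokinase, -2.21 ± 0.06). Slc2a6, the transporter GLUT6, was the gene that rose, by 0.46 ± 0.13. Of 8 other pentose phosphate and ribose genes none rose and 6 fell after LPS, led by Prps2 (-2.12 ± 0.08) and Rbks (-1.38 ± 0.12). After CpG Prps1, a phosphoribosyl pyrophosphate synthetase, rose by 0.70 ± 0.09 and Prps2 fell by 0.25 ± 0.08.

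Of 34 tested genes of pyruvate dehydrogenase and the citric acid cycle, 19 fell and 1 rose after LPS, and 12 fell and 3 rose after CpG. With both scales required, all tested genes also fell more often than they rose (38.7% against 14.1% after LPS, 18.6% against 15.0% after CpG). On scaled TPM alone their shares were nearly even after LPS (39.3% higher, 38.7% lower). The difference of this list from all genes was not tested. The gene that rose after LPS was Acod1, which makes itaconate from cis-aconitate, at a median of 570 TPM without stimulus, 2790 TPM after LPS and 1010 TPM after CpG (2.38 ± 0.12 and 0.86 ± 0.12). Pdk2, a pyruvate dehydrogenase kinase, fell by 3.41 ± 0.15 after LPS and by 1.69 ± 0.15 after CpG. The isocitrate dehydrogenases Idh2 and Idh1 fell by 3.19 ± 0.10 and 2.91 ± 0.11 after LPS, Idh1 from a median of 238 TPM to 33.2 TPM. Of 10 tested glycogen genes 8 fell and none rose after LPS, among them the phosphorylase Pygl (-2.64 ± 0.10), and 6 fell after CpG.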

How the data were processed

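Values are TPM per transcript in 21 libraries, deposited by the authors. The submitters' processing notes name bcl2fastq 1.8.4, kallisto 0.44.0 and the build GRCm38, without their roles. The RNA was made into stranded TruSeq libraries read on an Illumina HiSeq instrument, per the labels' protocols. Every library sums to 1000000. Of 89562 transcripts, 82788 carried a gene name, 5423 more were matched to GENCODE vM21 by transcript ID and 1351 were left out (5351 to 7551 TPM per library). Summing over transcripts gave 23544 genes. The files give no counts. Depth was inferred from the steps between low values, each multiplied by transcript length, over 3691 genes, with an assumed fragment length of 200 bases (64.3% to 74.2% of low values within 0.2 of a whole read). No column of sample values was left unused.

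The 11763 genes whose mean reached 1 TPM were fitted with limma 3.58.1 (R 4.3.3) on log2(TPM + 1), with lmFit and eBayes with a trend, two-sided, and Benjamini-Hochberg adjustment over all genes tested, threshold 0.05. Stimuli were fitted with the 7 sets of genotype and protein as blocks (12 residual degrees of freedom), genotype labels with the 9 treatments and proteins with the 9 combinations of genotype and stimulus (10 each), and differences of responses with an interaction term (8). Scaled TPM used median-of-ratios factors over 11197 genes. The script was tested on simulated data, where it recovered most of the changes put in. Every member is named. Values are given for members called on both scales, and for genes among the 4 largest changes of each other list, some of which are not reported here. Members and lists were chosen with earlier results of these data known. Alternatives were other pseudocounts (0.1, 5), other filters on low values (none, 5 TPM), other scalings, the most abundant transcript, robust eBayes, other blocks and libraries left out. Fits over coding transcripts were added after the data were seen. Python 3.11.15 with scipy 1.17.1 gave the ratio tests.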

Additional observations from a re-analysis of the deposited data

Results flagged for a closer look

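In 99 groups of 7 libraries under a stimulus (33 members, 3 stimulus states), 5 values lay far from the other 6 by Dixon's test, which chance does in about 1 in 20 groups. Slc2a1 was 70.6 TPM in the wild-type library with lumican alone, and the next unstimulated library was at 61.8 TPM. Pfkl was 143 TPM in the untreated wild-type library, with the next at 98.3 TPM. Gapdh was 1170 TPM in the lumican-alone library labelled Lum-/-, below the next at 1310 TPM. P4ha1 was 63.6 TPM in the wild-type library with LPS, with the next at 54.7 TPM. Tkt was 353 TPM in the wild-type library with biglycan and CpG, with the next at 315 TPM. These values come from 5 different libraries.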

How the results depend on the processing

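On deposited TPM, of the members called with all libraries, 18 of 22 after LPS, 4 of 12 after CpG, 18 of 20 between LPS and CpG and 2 of 7 under the label Lum-/- kept their call in every alternative. After median-of-ratios scaling, 11 members were higher and 15 lower after LPS, and 10 were higher after LPS than after CpG (9 with quantile normalization). For CpG on both scales, 1 member was lower with no filter and 1 without the 2 alike libraries and the untreated wild-type library (1 in deposited TPM too). Without added protein, 4 were higher and 1 lower after CpG, and 4 were higher in the additive fit against untreated, on each scale. Gpi1 after CpG was 0.01 over coding transcripts. Under the label Lum-/-, no filter left 1 higher and 1 lower, and the most abundant transcript gave 2 higher and 5 lower in TPM, 2 and 1 on both scales. The Ldha/Ldhb ratio between LPS and CpG was -0.58 with a pseudocount of 5 and then passed (exact adjusted p = 0.0216). With 1 library left out in turn, counts under the label Lum-/- ran from 1 to 4 higher and 0 to 3 lower on both scales (1 to 4 and 1 to 3 in TPM). The lowest counts came without the LPS library labelled Lum-/- (1 and 0) and, at 1 and 1, without its CpG library, the lumican-alone library of that label or that of wild type. Members lower after CpG ran from 1 to 4 (2 to 5 in TPM), with 1 without the CpG library labelled Lum-/-, the untreated wild-type or the wild-type CpG library. The Pfkp/Pfkl ratio after CpG ran from 0.16 to 0.42 with a set left out, and passed at the latter. The cause was not tested. The depth of the 2 shallow libraries limits low genes such as Aldoc and Egln3.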
